A study of Mus musculus with 6 samples.

Results

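Tubulin genes were examined in livers of mice given an overdose of acetaminophen (APAP). Of the 34745 genes listed in the deposited count table, 10 code for the alpha and beta tubulins considered here, namely Tuba1a, Tuba1b, Tuba1c, Tuba4a and Tuba8 (alpha) and Tubb2a, Tubb2b, Tubb4b, Tubb5 and Tubb6 (beta). They were taken from the table by gene name, and the set was chosen with their difference between APAP and saline known, so that difference, and the calls that the fit across all genes made for them, are given below as a description and are no independent test of the 10 genes. The other tubulins and the genes that fold, modify or bind tubulin were tested, together with all other genes, in the same fit.

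The study addressed how the nuclear receptor PXR responds to APAP in the liver, and this experiment compared the liver transcriptomes of APAP-treated and control mice. The animals were male C57BL/6J mice of 8 to 10 weeks, fasted for 12 h before an intraperitoneal injection. Both groups carried the WT genotype and no engineered allele. The APAP group received 300 mg/kg and was sampled at 12 h, and the control group received saline. The labels hold 3 samples per group, of which 2 APAP libraries (APAP1 and APAP3) and 3 libraries named WT1, WT2 and WT3 were analysed. The WT libraries were taken for the saline group, since all other count columns carry the name APAP, and they could not be matched to the numbered saline samples. The study describes its experiments in general as biological repeats, and the labels do not tie the libraries to animals, so p-values measure the spread between these libraries.

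The libraries held between 13378445 and 15976339 counts. Levels are given as CPM, the counts of a gene relative to all counts of its library, after TMM scaling, in which 3 counts, taken here as the floor of detection, amount to 0.176 to 0.269 CPM. Genes of the sex chromosomes separated the groups. Xist, which is transcribed from the inactive X chromosome of females, had 0.764 and 1.73 CPM after APAP but 290, 914 and 882 CPM after saline. Ddx3y, a gene of the Y chromosome, had 79.0 and 61.7 CPM after APAP but 0, 0 and 0.0668 CPM after saline, although all animals are described as male. Treatment and this difference in sex-linked genes therefore cannot be told apart for any gene below. In liver tissue sequenced in bulk, fewer cells of a type and less RNA per cell cannot be told apart either.

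Alpha and beta tubulin form the heterodimer from which microtubules are built. In hepatocytes, microtubules carry secretory vesicles to the blood and bile faces of the cell, position organelles and form the mitotic spindle when the cell divides. New tubulin chains are passed from prefoldin to the CCT chaperonin and then to the tubulin folding cofactors, which assemble the dimer. Cells also adjust the stability of tubulin mRNA to the amount of free dimer. When free dimer is plentiful, the factor TTC5 binds the start of the tubulin chain emerging from the ribosome, and the mRNA being translated is degraded. Each tubulin class is encoded by several genes, called isotypes, whose proteins are similar and whose tissue distribution differs.

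The start of the coding sequence is shown first, because it encodes the stretch that this mRNA control reads. The first 18 coding bases of the GENCODE M21 reference transcripts are printed 5′ to 3′, with the first 4 codons in capitals and the coding start of gamma tubulin Tubg1 added for comparison.
Tuba1a: ATGCGTGAGTGCatctcc
Tuba1b: ATGCGTGAGTGCatctcc
Tuba1c: ATGCGTGAGTGCatctcc
Tuba4a: ATGCGCGAGTGCatttca
Tuba8: ATGAGGGAATGCatatcg
Tubb2a: ATGCGCGAGATCgtgcac
Tubb2b: ATGCGAGAGATCgtgcac
Tubb4b: ATGAGGGAGATCgtgcac
Tubb5: ATGAGGGAAATCgtgcac
Tubg1: ATGCCGAGAGAAatcatc
The 5 alpha genes used 3 versions of the first 4 codons, which differed at 3 of the 12 positions. The 4 beta genes printed used 4 versions, which also differed at 3 positions. In both classes these were positions 4, 6 and 9, counted from 1 at the A of the start codon. Gamma tubulin, which nucleates microtubules and is not part of the dimer, begins with other codons.

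The control regions of the genes were compared as well, because several tubulins moved together. RefSeq promoter windows (GRCm38.p6, 250 bases before to 50 bases after the gene start) were at hand for 8 of the 10 genes. No window was used for Tubb6 or Tubb2b, so the motif results do not cover them. Stretches ending at the base before the RefSeq gene start are printed 5′ to 3′ on the gene's own strand for 3 genes whose mRNA was higher after APAP (Tubb4b, Tuba1b and Tuba1c) and for Tubb2a, whose groups overlapped. The Tuba1b stretch lies within the gene bounds that go with the counts (98931425 to 98934565), because its RefSeq start lies further inside. It is therefore not upstream of the gene as counted. Capitals mark matches, on either strand, to any of the motifs searched that lie wholly within the stretch, so a GGGCGG match of Tubb4b that begins at the last base printed and runs past the gene start is not marked.
Tubb4b, chr2:25224703-25224952, minus strand: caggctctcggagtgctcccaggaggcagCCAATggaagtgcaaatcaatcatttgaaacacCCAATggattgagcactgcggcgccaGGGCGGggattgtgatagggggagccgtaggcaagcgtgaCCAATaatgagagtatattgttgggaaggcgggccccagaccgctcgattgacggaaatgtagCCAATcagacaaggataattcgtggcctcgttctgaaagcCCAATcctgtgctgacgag
Tuba1b, chr15:98934391-98934490, minus strand: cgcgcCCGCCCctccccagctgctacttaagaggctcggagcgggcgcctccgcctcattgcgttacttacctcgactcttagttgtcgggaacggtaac
Tuba1c, chr15:99029791-99029890, plus strand: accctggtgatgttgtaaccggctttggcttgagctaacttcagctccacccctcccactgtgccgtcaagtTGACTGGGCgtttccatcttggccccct
Tubb2a, chr13:34078009-34078108, minus strand: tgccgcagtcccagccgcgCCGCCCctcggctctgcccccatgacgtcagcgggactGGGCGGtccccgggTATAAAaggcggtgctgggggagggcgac
The GC box GGGCGG was present in 6 of the 8 tubulin windows and in 35.7% of all 32851 promoter windows. CCAAT was present in 4 tubulin windows (Tuba1a, Tuba1c, Tubb4b and Tubb5) and in 37.4% of all windows. The Tubb4b window held 5 copies of CCAAT, a count chosen for mention after it was seen, and 0.271% of all windows held at least 5. TATAAA was found in Tubb2a and Tubb4b, against 13.6% of all windows, although the Tubb4b match lay after the gene start, at position 19. The heat shock element core TTCNNGAA was found in Tuba1c and Tubb5 (8.52% of all windows), the antioxidant response core TGACNNNGC in Tuba1a and Tuba1c (12.4%), and the E-box CACGTG in Tuba8 and Tubb5 (7.15%). The AP-1 motif TGANTCA was not found in the 8 windows and stood in 7.81% of all windows. None of the 28 matches overlapped another match. None of the motifs was present in all 3 windows of Tubb4b, Tuba1b and Tuba1c, and a match is only a run of letters, not a site of binding.

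Tubulin mRNA was higher in the livers of APAP-treated mice, most steeply for Tubb6 and by lesser amounts for Tubb4b, Tuba1c and Tuba1b. Of the 10 genes, 9 had enough counts to enter the fit across all genes. An adjusted p under 0.05 was reached by 4 of the 9, all higher after APAP, and the members were chosen on this contrast, so nothing is read from the count. Among all 13734 genes tested, 3.7% were called higher, 3.53% were called lower and 7.23% were called in either direction. With DESeq2, 2093 of the genes tested were called. The share of all genes at an unadjusted p under 0.05 was not worked out, so no excess is read from counts at that threshold below. Both APAP libraries lay above all 3 saline libraries for 6 tubulin genes, an arrangement found in 24% of all genes tested. The median log2 fold change was 0.96 over the 9 genes and 0.03 over all genes tested.

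**Figure D1:**
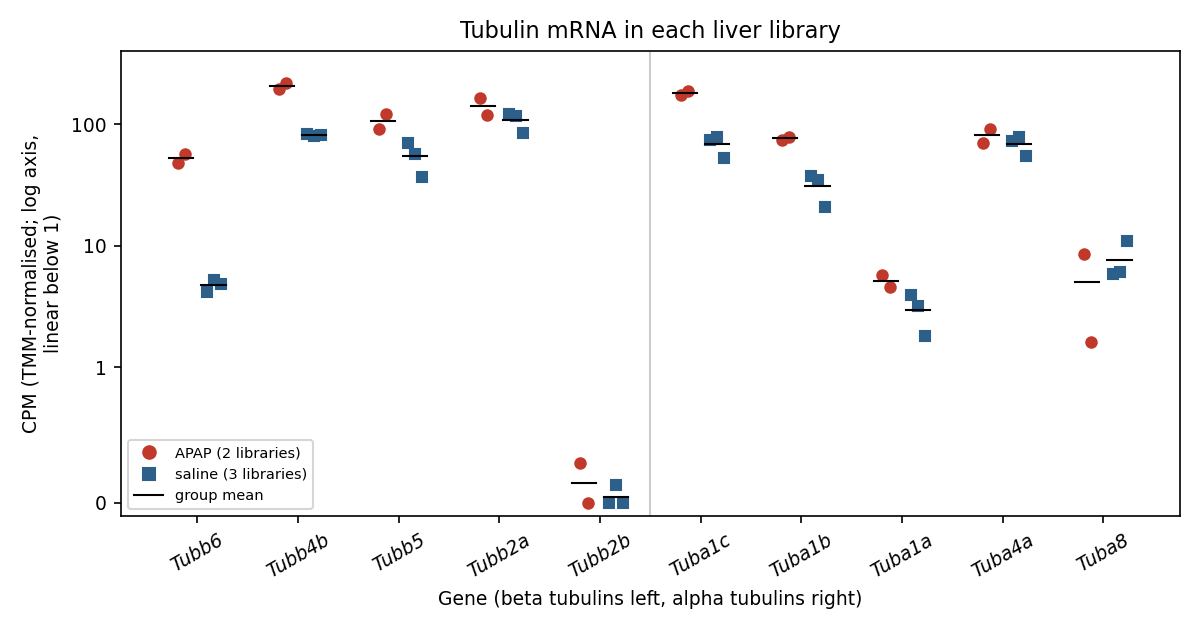
Level of each tubulin gene in each library, as TMM-normalised CPM on a log axis that is linear below 1, with APAP libraries as circles, saline libraries as squares and group means as lines. Tubb6 lies at 47.8 and 57.1 CPM after APAP and between 4.12 and 5.25 CPM after saline, while the groups overlap for Tubb2a, Tubb2b, Tuba4a and Tuba8.

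Tubb6 encodes the class V beta tubulin, a minor isotype in most tissues whose overexpression disrupts microtubule networks in cultured cells. It is an autosomal gene with 4 exons on the plus strand of chromosome 18, from 67390717 to 67402748 (GRCm38). It had 813 and 924 counts in APAP1 and APAP3 and 46, 79 and 73 counts in WT1, WT2 and WT3. On the CPM scale these were 47.8 and 57.1 against 4.12, 5.25 and 4.88. The lowest APAP library thus stood far above the highest saline library, and each group was tight around its mean of 52.4 ± 6.61 CPM (SD, n = 2) or 4.75 ± 0.573 CPM (SD, n = 3). The means differed 11.0-fold, and the fitted log2 fold change was 3.46 ± 0.22 (SE). Only 1.19% of the genes tested had a higher log2 fold change. Over 13 other ways of fitting the data, the log2 fold change of Tubb6 stayed between 3.31 and 3.83.

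Tubb4b encodes the class IVb isotype, expressed in most tissues and used in the axonemes of cilia. Its gene lies on the minus strand of chromosome 2, from 25222160 to 25224702. Its level was 194 and 218 CPM after APAP and 82.0, 79.9 and 81.2 CPM after saline. The saline libraries were nearly identical, and both APAP libraries were clear of them. The group means were 206 ± 16.6 CPM (SD, n = 2) and 81.1 ± 1.06 CPM (SD, n = 3), a 2.54-fold difference, with a log2 fold change of 1.34 ± 0.20 (SE).

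Tubb5, the class I beta tubulin found in nearly all cells, lies on the minus strand of chromosome 17, from 35833921 to 35838306. It was at 91.8 and 121 CPM after APAP and at 70.4, 57.1 and 36.4 CPM after saline. The groups did not overlap, but the saline libraries spread widely, and with a log2 fold change of 0.96 ± 0.31 (SE) the gene was not called. Tubb2a, a class II isotype, lies on the minus strand of chromosome 13, from 34074301 to 34078008. Its level was 165 and 118 CPM after APAP and 122, 116 and 85.0 CPM after saline. APAP3 fell below WT1, so the groups overlapped, and the log2 fold change was 0.40 ± 0.26 (SE).

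Tubb2b, the class II isotype of developing neurons, lies 49 kb from Tubb2a. It had 5 and 0 counts after APAP and 0, 2 and 0 counts after saline. Most of these values were at or under the floor of 3 counts, so no fold is given for Tubb2b.

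Among the alpha genes, Tuba1a, Tuba1b and Tuba1c lie within a cluster on chromosome 15. Tuba1a (98949841 to 98953551) and Tuba1b (98931425 to 98934565) stand on the minus strand with 15.3 kb between them, and Tuba1c (99029891 to 99038105) stands on the plus strand, 76.3 kb from Tuba1a. Tuba1b and Tuba1c are the broadly expressed alpha tubulins, and Tuba1a is best known from developing neurons.

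Tuba1c was at 173 and 187 CPM after APAP and at 73.9, 77.5 and 52.7 CPM after saline. Tuba1b was at 73.9 and 78.8 CPM after APAP and at 37.3, 34.4 and 20.8 CPM after saline. For both genes WT3 was the lowest library and the APAP libraries were close to each other and above all saline libraries. The group means of Tuba1c were 179.8 ± 10.1 CPM (SD, n = 2) and 68.0 ± 13.4 CPM (SD, n = 3), a 2.64-fold difference, with a log2 fold change of 1.40 ± 0.24 (SE). Those of Tuba1b were 76.3 ± 3.50 CPM (SD, n = 2) and 30.8 ± 8.82 CPM (SD, n = 3), a 2.48-fold difference, with a log2 fold change of 1.31 ± 0.28 (SE). The calls for Tubb4b, Tuba1c and Tuba1b were lost when APAP1, APAP3 or WT2 was left out, which left 1 called tubulin gene, Tubb6, and the call for Tuba1b was also lost without WT1. Their log2 fold changes stayed at 1.09 or above without any 1 library.

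Tuba1a was much scarcer, at 5.70 and 4.57 CPM after APAP and 3.94, 3.19 and 1.80 CPM after saline. The groups did not overlap, but with 27 to 97 counts per library its log2 fold change of 0.79 ± 0.41 (SE) was not called. Tuba4a, an alpha tubulin whose gene encodes no terminal tyrosine, lies on the minus strand of chromosome 1, from 75214228 to 75219865. It was at 70.3 and 91.7 CPM after APAP and at 73.0, 78.0 and 55.0 CPM after saline, and the log2 fold change was 0.24 ± 0.24 (SE). APAP1 stood below WT1 and WT2, so the groups overlapped. Tuba8, a divergent isotype best known from muscle and testis, lies on the plus strand of chromosome 6, from 121210696 to 121226854. Relative to its mean, it had the widest spread within the APAP group of the 9 genes tested, at 8.52 and 1.61 CPM, against 5.83, 6.11 and 11.0 CPM after saline. Its log2 fold change of -0.60 ± 0.67 (SE) was decided by APAP3 and became 0.14 without it.

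**Figure D2:**
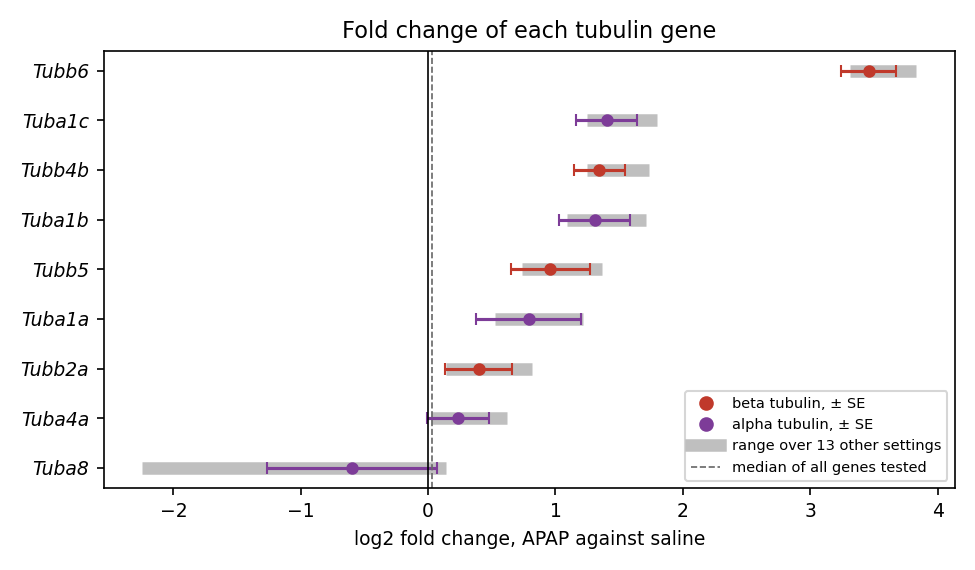
Log2 fold change of the 9 tubulin genes tested, APAP against saline, with the standard error of the fit as thin bars, the range over 13 other settings as grey bars and the median of all genes tested as a dashed line. Tubb6 stands apart at 3.46, Tuba1c, Tubb4b and Tuba1b lie together between 1.31 and 1.40, and Tuba8 has the widest grey bar.

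The isotypes were then compared with each other as CPM per kb of merged exons, which allows for their different transcript lengths. In saline-treated livers Tubb2a had the highest level, at 66.8 ± 12.3 CPM per kb (SD, n = 3). It was followed by Tubb4b at 38.8 ± 0.508, Tuba1c at 29.7 ± 5.86, Tuba4a at 18.5 ± 3.27, Tuba1b at 16.4 ± 4.70 and Tubb5 at 16.4 ± 5.16 CPM per kb. Tuba8, Tubb6 and Tuba1a lay between 1.65 and 3.38 CPM per kb, and Tubb2b was lowest at 0.0193 CPM per kb. Tuba4a, Tuba1b and Tubb5 did not separate from each other, nor did Tubb6 from Tuba1a, since the order of each pair changed between libraries.

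In APAP-treated livers the order was different. Tubb4b, Tubb2a and Tuba1c led at 98.6 ± 7.94, 87.9 ± 20.6 and 78.6 ± 4.42 CPM per kb (SD, n = 2). Tubb4b lay above Tuba1c in both APAP libraries. By merged exon length Tubb2a did not separate from either, since it lay above both in APAP1 and below both in APAP3. The order depends on the length used and was not worked out for other lengths. Tuba1b followed at 40.7 ± 1.87, Tubb5 at 32.0 ± 6.18, Tuba4a at 21.9 ± 4.09 and Tubb6 at 21.5 ± 2.71 CPM per kb. Tubb6, which in saline livers stood at the level of the scarce Tuba1a, reached that of Tuba4a. Tuba1a, Tuba8 and Tubb2b were the lowest of the 10 genes after APAP, between 0.0640 and 2.85 CPM per kb.

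Summed over their 5 genes, the alpha tubulins reached 141 and 152 CPM per kb after APAP and 76.7, 77.8 and 54.9 CPM per kb after saline. The beta tubulins reached 243 and 237 CPM per kb after APAP and 138, 129 and 105 CPM per kb after saline. Neither sum overlapped between the groups, and the means were 2.10-fold higher for alpha and 1.94-fold higher for beta tubulin. With no scaling beyond library size, these folds were 2.76 and 2.56. The ratio of beta to alpha tubulin mRNA was 1.72 and 1.56 after APAP and 1.80, 1.66 and 1.91 after saline, so that the ratio overlapped while both sums were higher.

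**Figure D3:**
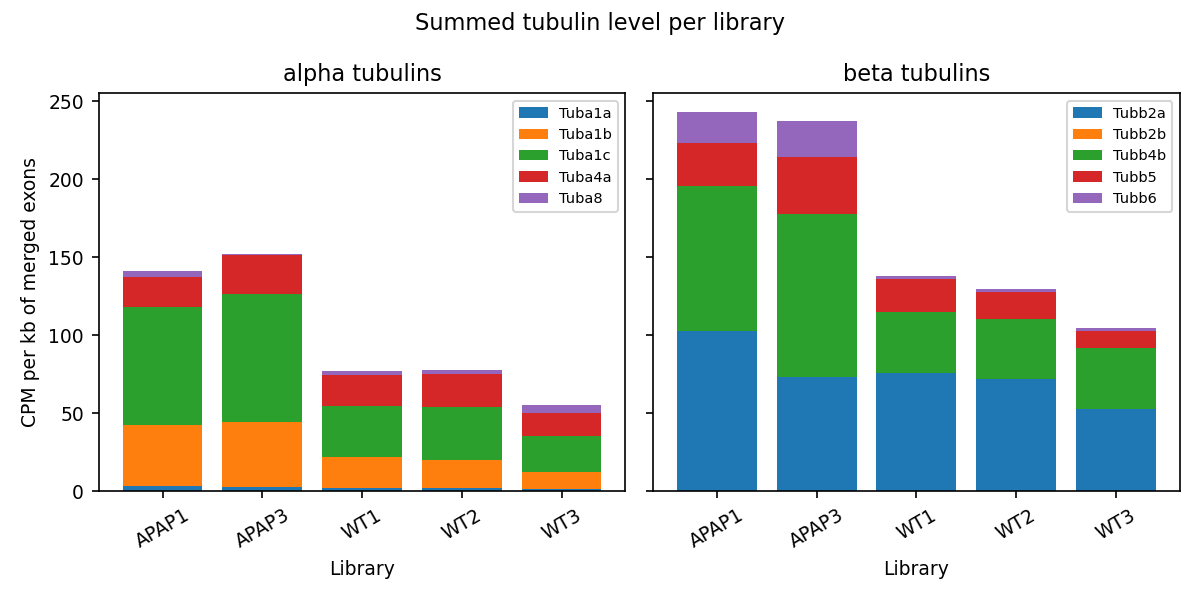
Summed level of the alpha (left) and beta (right) tubulin genes in each library, as CPM per kb of merged exons, with each isotype as a coloured segment. The APAP libraries reach 141 and 152 for alpha and 243 and 237 for beta, above all saline libraries, and the Tubb6 segment is visible mainly in the APAP libraries.

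The makeup of the pools is given as the share of each isotype in its class, which does not depend on how libraries are scaled to each other. Tubb6 made up 8.07% and 9.88% of beta tubulin mRNA per kb after APAP and 1.23%, 1.66% and 1.91% after saline. Tubb2a made up 42.2% and 30.9% after APAP and 54.9%, 55.5% and 50.4% after saline. The APAP shares of Tubb2a thus lay under those of every saline library, whereas its level in CPM overlapped between the groups. Tubb4b shares were 38.3% and 43.9% after APAP and 28.5%, 29.6% and 37.2% after saline, with APAP1 and WT3 close to each other. Tubb5 kept to 10.5% to 15.4% in all 5 libraries with the groups interleaved. The shares shift with the length used. With the longest protein-coding transcript, the mean shares after APAP were 30.7% for Tubb2a and 44.9% for Tubb4b, against 36.6% and 41.1% with merged exons. After saline they were 47.2% and 36.5%, against 53.6% and 31.7%.

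Within alpha tubulin, Tuba1c made up 53.6% and 53.8% after APAP and 42.1%, 43.6% and 42.0% after saline. Tuba4a made up 13.5% and 16.3% after APAP and 25.7%, 27.1% and 27.1% after saline. Tuba1b shares were 28.0% and 27.7% after APAP and 25.9%, 23.6% and 20.2% after saline. The shares of Tuba1c and Tuba1b were higher and that of Tuba4a was lower in each APAP library than in each saline library. These shares rest on the same counts as the levels above and are not further evidence.

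Counting of near-identical sequences limits how firmly reads are assigned to single isotypes. The coding sequences of Tuba1a, Tuba1b and Tuba1c were 97.1% to 98.3% identical in the reference, and those of Tubb2a and Tubb2b 96.5% identical. Of the 50-base words in the longest coding transcript of Tuba1b, 64.6% also occurred in another of the 10 genes and 83.1% in any other gene, pseudogenes included. The corresponding shares were 59.8% and 61.0% for Tuba1c and 52.0% and 75.5% for Tuba1a. How the authors' counting divided such reads is not given in the sources used here, so the separate values of these 3 genes are uncertain. Their sum is also affected, since some words occur only in genes outside the 10, and how much was not tested. Tubb6 shared 0% and Tubb5 0.115% of its words with other genes.

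Tubb4b shared 43.6% of its words with the processed pseudogene Tubb4b-ps1, which the table counts separately. Tubb4b-ps1 had 776 and 806 counts after APAP and 244, 290 and 305 counts after saline. These were 23.5% and 22.9% of the Tubb4b counts after APAP and 26.7%, 24.1% and 25.1% after saline. The pseudogene thus carried a nearly constant fraction of the Tubb4b counts, and Tubb4b and its copy cannot be told apart over the shared stretch. For Tuba4a, 47.7% of the words were shared with the neighbouring gene Stk16, whose annotated transcripts overlap it.

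Among the genes whose pattern over the 5 libraries was most like that of Tubb6, by Euclidean distance between mean-centred log2 CPM, were Zfand2a and Fam83a. Zfand2a, a stress-induced zinc finger protein that acts with the proteasome, was at a distance of 0.371, with 88.2 and 107 CPM after APAP and 8.34, 10.6 and 12.96 CPM after saline. Fam83a was at a distance of 0.404, with 52 and 80 counts after APAP and 0 in each saline library. With 0 in each saline library, its distance depends on the 0.5 CPM added. Its fitted log2 fold change was 8.90 ± 0.97 (SE), against 3.46 for Tubb6.

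Of 10 further tubulin genes (Tuba3a, Tuba3b, Tubal3, Tubb1, Tubb3, Tubb4a, Tubg1, Tubg2, Tubd1 and Tube1), 3 had enough counts to be tested and none of the 3 was called. At an unadjusted p under 0.05, the count was also 0 by edgeR's quasi-likelihood test, and 0 were called with DESeq2. Gamma tubulin Tubg1 had 19.4 and 24.4 CPM after APAP and 29.9, 24.4 and 26.1 CPM after saline. Its log2 fold change was -0.29 ± 0.21 (SE), with an adjusted p of 0.450 by edgeR's quasi-likelihood test, and turned to 0.10 with no scaling beyond library size. Delta tubulin Tubd1 and epsilon tubulin Tube1, both of the centrioles, had log2 fold changes of 0.25 ± 0.54 (SE) and 0.04 ± 0.84 (SE). Tuba3a and Tubal3 had no count in any library, and the other isotypes not tested had 0 to 9 counts per library.

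The genes that fold tubulin were examined next. Of 15 CCT and prefoldin genes tested, 0 were called by edgeR's quasi-likelihood test, 3 had an unadjusted p under 0.05 and DESeq2 called 1. With no scaling beyond library size, 4 of the 15 were called, against 1339 of all 13734 genes, so no excess is read from these counts. Both APAP libraries lay above all saline libraries for 9 of the 15, an arrangement found in 24% of all genes tested. The median log2 fold change was 0.26. The CCT subunit gene Cct3 came closest, at 111 and 111 CPM after APAP and 69.7, 62.4 and 64.7 CPM after saline, with a log2 fold change of 0.76 ± 0.19 (SE) and an adjusted p of 0.0605 by edgeR. Cct7, Cct6a and Cct5 followed with log2 fold changes of 0.57, 0.50 and 0.48.

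Of 7 tubulin folding cofactor genes tested, 1 was called and it was lower, against 3.53% of all genes called lower. Tbcel, a cofactor E-like protein that destabilises tubulin, was at 29.3 and 32.9 CPM after APAP and 72.4, 71.3 and 50.9 CPM after saline, below every saline library in both APAP libraries. Its log2 fold change was -1.06 ± 0.24 (SE), with an adjusted p of 0.0463 by edgeR, and the call was lost without APAP1, APAP3, WT1 or WT2 (adjusted p from 0.0917 to 0.264). Tbcd, which with Tbce brings the dimer together, had a log2 fold change of 0.52 ± 0.18 (SE), against 0.53 ± 0.34 (SE) for Tbce and 0.64 ± 0.36 (SE) for Tbcc, the cofactor that releases the dimer. None of these 3 passed the threshold.

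The 4 genes of tubulin mRNA control were not called. By edgeR none of the 4 had an unadjusted p under 0.05, and DESeq2 called 0. Ttc5 was at 9.93 and 6.43 CPM after APAP and 5.56, 6.44 and 4.28 CPM after saline, with APAP3 just below WT2, and its log2 fold change was 0.59 ± 0.33 (SE) with an adjusted p of 0.323 by edgeR. Scaper and Cnot11, which link Ttc5 to the deadenylase, had log2 fold changes of 0.37 ± 0.31 (SE) and 0.28 ± 0.18 (SE), and the deadenylase scaffold Cnot1 one of -0.01 ± 0.20 (SE).

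Among 11 genes of the gamma-tubulin complex and microtubule nucleation, 0 were called by edgeR, 0 had an unadjusted p under 0.05 and DESeq2 called 0. The smallest adjusted p values belonged to Mzt1, Cdk5rap2, Tubgcp6 and Mzt2, at 0.359, 0.444, 0.487 and 0.546 by edgeR, with log2 fold changes between -0.39 and 0.55.

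Microtubule-associated and severing proteins, of which 16 were tested, had a median log2 fold change of -0.06. The plus-end binding proteins Mapre1 and Mapre3 and the microtubule-stabilising Map1s had log2 fold changes of 0.60, 0.80 and 0.98 and were not called. Stmn1, which sequesters tubulin dimers, had a log2 fold change of -0.79 ± 0.30 (SE) with an adjusted p of 0.169 by edgeR.

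None of the 13 tubulin-modifying enzymes tested was called by edgeR, although 4 had an unadjusted p under 0.05 and DESeq2 called 3. Vash2, a tubulin carboxypeptidase, had 204 and 13 counts after APAP and 0 in each saline library, an unequal pair with an adjusted p of 0.0596 by edgeR. The deacetylase Sirt2 and the acetyltransferase Atat1, which act on the same lysine of alpha tubulin, had log2 fold changes of -0.98 ± 0.27 (SE) and -1.19 ± 0.41 (SE). Ttll12 and the tubulin tyrosine ligase Ttl had log2 fold changes of 1.02 ± 0.36 (SE) and 0.70 ± 0.34 (SE), and neither passed the threshold. Vash1, the other carboxypeptidase, had 1 to 19 counts per library and was not tested.

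Of 16 motor and motor adaptor genes tested, 1 was called higher and 1 lower, against 3.7% and 3.53% of all genes. Dynll1, a dynein light chain that also binds many proteins outside dynein, was at 49.8 and 39.1 CPM after APAP and 13.6, 9.57 and 11.4 CPM after saline. Its log2 fold change was 1.95 ± 0.23 (SE), with an adjusted p of 0.00705 by edgeR, which became 0.0517 without WT2. Klc4, a kinesin light chain, was at 25.5 and 27.6 CPM after APAP and 59.0, 58.3 and 68.8 CPM after saline, with a log2 fold change of -1.22 ± 0.20 (SE) and an adjusted p of 0.0196 by edgeR, a call lost without APAP1, APAP3 or WT2 (adjusted p from 0.0798 to 0.154). The dynein light intermediate chain Dync1li1 and the kinesin Kif3a had log2 fold changes of 0.76 and 0.89 and were not called.

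The actin cytoskeleton was included as a comparison. Of 16 genes tested, 5 were called higher and 0 lower, against 3.7% and 3.53% of all genes. The 5 were Vcl, Flna, Tpm3, Tpm4 and Actn1, with log2 fold changes between 1.01 and 1.74. By edgeR, 10 of the 16 had an unadjusted p under 0.05, a threshold whose share over all genes was not worked out. DESeq2 called 7 of the 16, against 2093 of all 13734 genes. Leaving out any 1 library ended the calls for Tpm4 and Actn1, leaving out APAP1, APAP3 or WT2 also those for Flna and Tpm3, and leaving out WT1 also that for Tpm3. Vinculin (Vcl), which ties actin to adhesion sites, was at 74.3 and 76.2 CPM after APAP and 24.1, 24.7 and 18.8 CPM after saline, and it was called without each library in turn. Beta actin (Actb) was at 423 and 475 CPM after APAP and 256, 211 and 197 CPM after saline, with a log2 fold change of 1.02 ± 0.24 (SE) and an adjusted p of 0.0501 by edgeR, while gamma actin (Actg1) had a log2 fold change of 1.52 ± 0.43 (SE) and an adjusted p of 0.0848 by edgeR. The list median of 0.66 lay below the tubulin median of 0.96, and the difference between the lists was not tested.

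**Figure D4:**
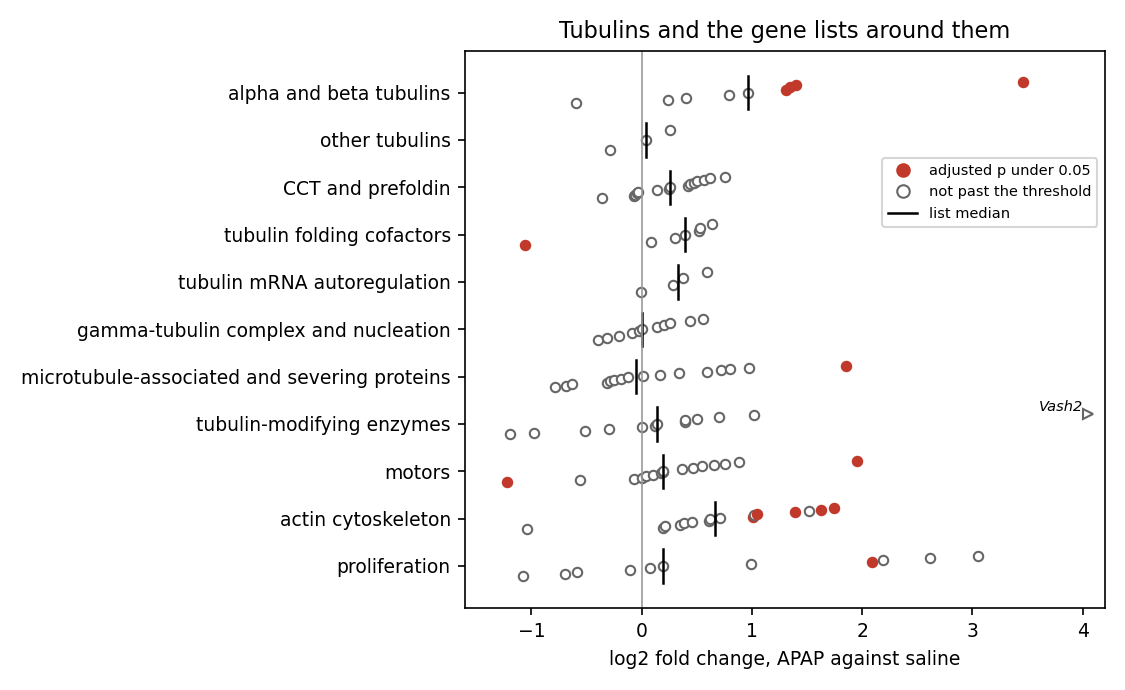
Log2 fold change of each tested gene, APAP against saline, for the alpha and beta tubulins and for the lists of related genes, with filled points for an adjusted p under 0.05, open points for the rest and a bar at each list median. The filled points include 4 among the tubulins, 1 among the folding cofactors, 2 among the motors, 5 in the actin cytoskeleton and 1 in proliferation, and the arrow marks Vash2, which lies beyond the axis.

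Proliferation genes and markers of other cell types were examined beside the tubulins. Of 11 proliferation genes tested, 1 was called higher, against 3.7% of all genes. It was the DNA helicase subunit Mcm2, with a log2 fold change of 2.09 ± 0.38 (SE) and an adjusted p of 0.0266 by edgeR, a call lost without any 1 library (adjusted p from 0.0551 to 0.186). Cyclin genes Ccnd1 and Ccne1 and Mcm5 had log2 fold changes of 2.62, 3.05 and 2.19 with adjusted p values of 0.0506, 0.0766 and 0.113 by edgeR. Neutrophil markers were called higher for 6 of 7 genes tested (2 of them without WT2, 3 without APAP1 and 4 without WT1), against 3.7% of all genes. Their summed level was 2154 and 735 CPM after APAP against 14.8 to 70.4 CPM after saline. Lcn2, which injured hepatocytes also express, supplied most of this sum, at 2045 and 661 CPM after APAP and 11.8, 9.50 and 62.1 CPM after saline. Cholangiocyte markers were called higher for 2 of 5 (Sox9 and Spp1, against 3.7% of all genes), with a summed level of 347 and 355 CPM against 47.1 to 51.9 CPM. Spp1 alone supplied 276 and 313 CPM of it after APAP and 40.1, 42.6 and 37.7 CPM after saline. The remaining genes, Krt19, Krt7 and Epcam, were not called and were uneven between the APAP libraries. Krt19 was at 23.6 and 2.72 CPM after APAP and 1.25, 2.06 and 2.54 CPM after saline. Krt7 was at 6.29 and 2.10 CPM after APAP and 0.717, 1.13 and 0.868 CPM after saline. Epcam was at 8.23 and 2.41 CPM after APAP and 1.79, 1.46 and 2.34 CPM after saline. The summed markers of macrophages and monocytes, endothelial cells, stellate cells, lymphocytes and platelets overlapped between the groups, and 2 of their genes were called higher, the monocyte receptor gene Ccr2 and the collagen gene Col1a1 of the stellate list. Both calls were lost without any 1 library, with adjusted p from 0.0807 to 0.212 for Ccr2 and from 0.0640 to 0.305 for Col1a1 by edgeR. These marker genes were named after their values were seen.

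Hepatocyte markers, which check the labelled tissue, were the most abundant list in every library, with a summed level of 70538 and 113853 CPM after APAP and 121498 to 161758 CPM after saline. None of the 7 was called by edgeR, 4 had an unadjusted p under 0.05 and DESeq2 called 4. The median log2 fold change of the 7 was -0.90. Both APAP libraries lay below all saline libraries for 6 of the 7, an arrangement whose share over all genes was not worked out. The groups overlapped for Apoa1, which had a log2 fold change of 0.57 ± 0.40 (SE). No marker of these lists was at 0 in every library. The part of cell composition in the tubulin levels was not tested.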

How the data were processed

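Liver RNA was extracted with TRIzol and sequenced from SMARTER mRNA-Seq libraries. The authors deposited whole-number read counts per gene, obtained with HISAT2 per the study's methods, beside FPKM values from StringTie. GRCm38 (mm10) is the build named in the labels. The handling of reads that fit several genes and of strand is not given in the sources used here. The 5 FPKM columns were not used, and the second APAP sample was not analysed here.

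Counts were filtered with filterByExpr (minimum count 10, minimum total 15) and tested with edgeR 4.0.16 (TMM factors, quasi-likelihood F-test, 2 APAP against 3 saline libraries) in R 4.3.3. P-values were adjusted by Benjamini-Hochberg over all 13734 genes tested, and a gene was called at an adjusted p under 0.05. The SE of a log2 fold change is its size divided by the square root of F. CPM per kb used the merged exon length of GENCODE M21. The coefficient of variation between replicates was 33.3%. Within-group pairs of libraries differed by 43.6 to 93.2 chi-square units per degree of freedom, so none was a duplicate. The scripts were tested on simulated counts.

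The alternatives were other normalisations, filters and tests (DESeq2 1.42.0 among them), gene length, the threshold of unadjusted p under 0.05 with a fold of at least 1.5, and leaving out each library. All 10 tubulin genes are named, as is each further tubulin tested. From each related list the 4 genes with the smallest adjusted p are named, with Ttc5, Vash1, Ttl, Stmn1, Actb and Actg1 in any case, and the 3 genes nearest to Tubb6 (on log2 of CPM plus 0.5), except that 2 genes so chosen are not reported here. The tubulin genes and all lists were chosen with earlier results of these data known. Promoters are from RefSeq, and coding sequences were aligned with Biopython 1.88.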

Additional observations from a re-analysis of the deposited data

How the results depend on the processing

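Of 117 comparisons of the tubulin genes' log2 fold changes with another setting, 105 kept direction and call, 10 lost the call, 1 gained it (Tubb5, with library size only) and 1 changed sign (Tuba8). These calls restate the contrast on which the genes were chosen and are no independent evidence. Leaving out single libraries gave 1 to 4 called tubulin genes, with 1 left without APAP1, APAP3 or WT2, and 1 to 7 called genes in the related lists, against 10 with all libraries. That latter count was 23 with library size only, 17 with edgeR's likelihood ratio test, 17 with its exact test and 18 with DESeq2. It was 29 at an unadjusted p under 0.05 with a fold of at least 1.5, a threshold whose share over all genes was not worked out. With library size only, 1339 genes were called over the whole table. With library size only, the median log2 fold change of all genes moved by 0.39 and the share of higher calls from 51.2% to 77.8%, the summed folds became 2.76 (alpha) and 2.56 (beta), and Tubg1 became 0.10. Without single libraries, log2 fold changes ran from -2.24 to 0.14 for Tuba8, from -0.076 to 0.70 for Tubd1 and from -0.79 to 0.55 for Tube1. Genes called over the whole table numbered 993 with all libraries, 235 without APAP1, 401 without APAP3, 510 without WT1, 165 without WT2 and 922 without WT3, and 1835, 1776 and 2093 by the likelihood ratio, exact and DESeq2 tests. Beyond the fewer samples in the reduced fits, the cause was not tested. No paired analysis was possible because the WT columns carry no number that the labels tie to a saline sample.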
